A study of Bos taurus and Sus scrofa with 10 samples.

Results

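One library of cow oocytes (Bos taurus) and one library of pig oocytes (Sus scrofa) were set against each other gene by gene. Rows of the cow and pig tables were paired where both carried the same gene symbol, rows known only by an Ensembl identifier were left out, and of a symbol with several rows the one with the highest mean was kept. This gave 13251 paired symbols from 22845 cow rows and 21867 pig rows, and 9436 of them had at least 1 RPM (reads per 1000000 reads of the library) in one oocyte library or the other and were compared. An identical symbol does not make 2 rows one-to-one orthologs, and orthology was not checked here.

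The study sequenced total RNA of oocytes, 2-4 cell embryos, 8-16 cell embryos, morulae and blastocysts of both species, alongside work on DNA methylation in preimplantation development. Each species and stage had 1 library, so the comparison has no replicate, no p-value is given, and every interval covers the counting of reads only. RNA was isolated with a kit for minute samples (PicoPure) and amplified with a kit for low input (Ovation), and the libraries then passed through 8 cycles of PCR with no molecular identifiers described. The labels call both groups oocyte and state no treatment; the breed, the age of the animals, the maturity of the oocytes and the number of oocytes per library are not given in the sources used here. In bulk samples such as these, fewer cells of a type and less RNA per cell cannot be told apart.

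A growing oocyte transcribes heavily and stores much of the RNA it makes, bound to proteins and with short poly(A) tails. Transcription stops in the fully grown oocyte, so meiosis, fertilization and the early cleavages run on this maternal store until the embryonic genome is switched on. What an oocyte library holds thus depends on storage, adenylation and decay of maternal messages as well as on their transcription.

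The cow oocyte library held 4929953 reads and the pig oocyte library 3377626. Gene rows took 72.3% of the reads in cow and 86.3% in pig, and the paired symbols took 55.2% and 71.0%. A count of 0 reads allows up to 0.609 RPM in the cow library and up to 0.888 RPM in the pig library (a floor of 3 reads). The tables were scaled separately, and their gene models differ, so RPM values of the 2 species were not divided by each other. Each symbol was given instead its percentile rank among the 13251 paired symbols of its own library, from 0 to 100, and the cow percentile minus the pig percentile is given in points. Symbols with 0 reads share a tied rank, at percentile 13.4 in cow (3552 symbols) and 15.5 in pig (4106 symbols). A gene at 10 RPM lay at percentile 63.1 in cow and 61.4 in pig, and one at 100 RPM at 89.7 and 88.1. RPM is not divided by gene length, so values compare the same gene between species and not one gene with another.

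Both libraries carried the defining messages of the oocyte. ZP2, a sperm-binding glycoprotein of the zona pellucida, stood at 3261 RPM in cow and 1128 RPM in pig. BMP15, a growth factor secreted by the oocyte, stood at 1181 and 2361 RPM. GDF9, its partner, stood at 400.2 RPM in cow and 1252 RPM in pig. All 3 lay above percentile 98 in both libraries. WEE2, the kinase that holds the oocyte in meiotic arrest, had 698 and 1976 RPM, and the oocyte linker histone H1FOO had 104 and 416 RPM.

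Markers of the follicular cells that surround the oocyte were measured in the same libraries. The 19 paired symbols of the cumulus and granulosa list summed to 436 RPM in the cow oocyte and 269 RPM in the pig oocyte, with 7 of them at 0 reads in cow and 9 in pig. CYP11A1, INHA, INHBB, AREG and EREG were at 0 reads in both libraries. STAR (157 and 43.2 RPM), VCAN (116 and 100.7 RPM), FSHR (37.3 and 11.3 RPM) and KITLG (19.1 and 106 RPM) were detected in both. Other markers of that list carried their symbol in the cow table only: HAS2 at 141 RPM, SERPINE2 at 14.8 RPM, and LHCGR, AMH and FOXL2 at 0 reads. The 11 list members compared had a median difference of 14.9 points, with 8 above 0 and 3 below. Blood, stroma and endothelium markers together held 9.53 RPM (cow) and 15.4 RPM (pig) over 15 paired symbols, of which 10 were at 0 reads in each library. Trophectoderm and inner cell mass markers summed to 60.04 and 29.3 RPM over 12 paired symbols. The part of any other cell type in the differences given next was not tested.

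A symbol was counted as ranked apart when its percentiles differed by at least 25 points. Of the 9436 compared symbols, 2680 (28.4%) were ranked apart: 1316 (13.9%) ranked higher in the cow oocyte and 1364 (14.5%) ranked higher in the pig oocyte. The median difference was 1.17 points and the quartiles were -12.8 and 14.5 points. At the threshold itself, KHSRP lay just inside at -25.002 points and ZNF512 just outside at 24.998 points. A further 3747 symbols (39.7%) lay within 10 points of each other.

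The minimum of 1 RPM was met in both libraries by 6709 symbols, in the cow library alone by 1501 and in the pig library alone by 1226. Symbols that entered through one library alone had by this rule under 1 RPM in the other. Among the 6709 present in both, 367 ranked higher in cow and 460 ranked higher in pig by 25 points or more. At the top of the ranking the libraries held partly different genes. Of the 100 paired symbols with the most reads in each library, 29 (29% of each list) were shared, and of the 1000 with the most reads, 486 (48.6% of each list) were shared. At the top, ranks are tightly packed, so a large difference in reads can move a gene by only a few points there.

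**Figure D1:**
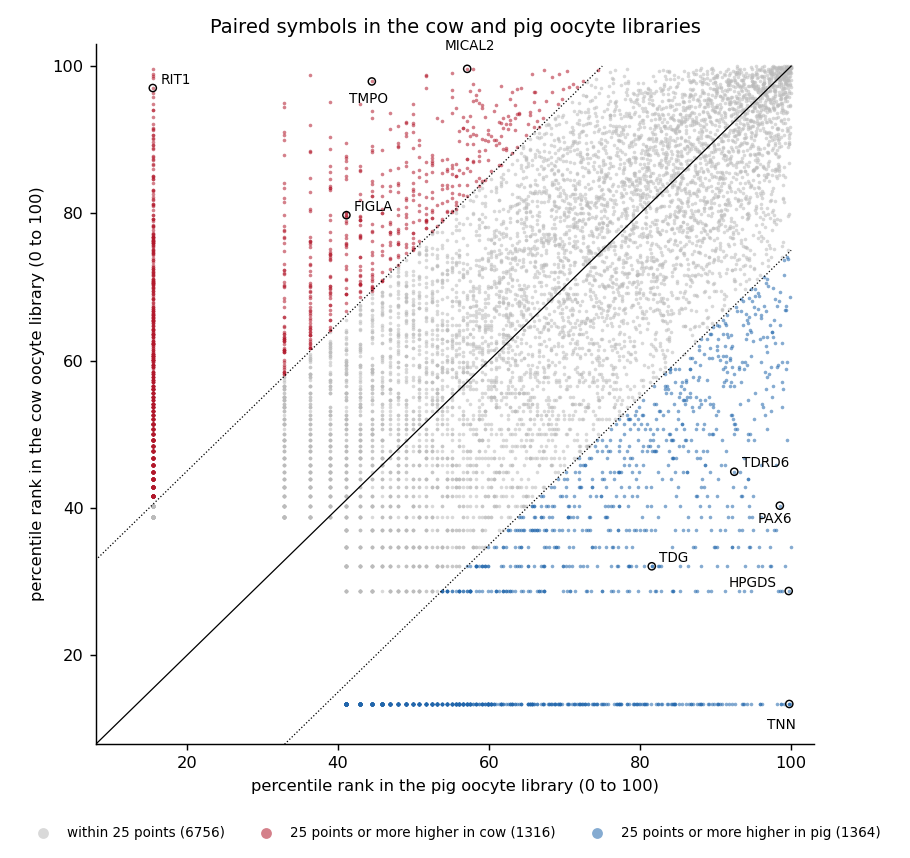
Percentile rank of each compared symbol in the pig oocyte library (x axis, 0 to 100) against its rank in the cow oocyte library (y axis, 0 to 100). Coloured points are the 1316 symbols ranked at least 25 points higher in cow and the 1364 ranked at least 25 points higher in pig, and the straight edges at percentiles 13.4 and 15.5 are symbols with 0 reads.

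Among cow-higher symbols the median was 11.7 RPM in the cow oocyte and 0 RPM in the pig oocyte, and 791 of the 1316 had 0 reads in the pig oocyte. Among pig-higher symbols the median was 20.0 RPM in the pig oocyte and 0.203 RPM, which is 1 read, in the cow oocyte, and 645 of the 1364 had 0 reads in the cow oocyte. Some of these rows held next to nothing at any stage of the lower species. Of the cow-higher symbols, 253 (19.2%) stayed under 1 RPM in all 5 pig libraries, and 110 had no read in any of them. Of the pig-higher symbols, 360 (26.4%) stayed under 1 RPM in all 5 cow libraries, and 159 had no read in any. Whether such rows could take up reads in their table was not tested.

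The gene models differed with direction. The annotated span from start to end differed by more than 2 times between the tables for 20.3% of the cow-higher symbols and 34.6% of the pig-higher symbols, against 20.7% of all compared symbols. The cow span was the shorter for 81.5% of the pig-higher symbols, against 75.8% of all compared ones. The pig span was the shorter for 35.8% of the cow-higher symbols, against 24.1% of all. Spans overlapped another row in either table for 30.1% of cow-higher and 39.1% of pig-higher symbols, against 37.3% of all. The part of these gene models in the rank differences was not tested.

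The symbols furthest apart were picked among those with at least 10 RPM in the higher oocyte, at least 1 RPM in some library of the other species, a single row in each table and no overlapping span. Those highest in the cow oocyte by rank were RIT1, DBR1, PPARGC1A, RBM46, TECTB, SOSTDC1, PTGS2 and MYCL. All 8 had 0 reads in the pig oocyte. In the cow 2-4 cell embryo they still held between 60.8 and 248 RPM.

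RIT1, a small GTPase of the RAS family, lay at chromosome 3, 14908141 to 14917339, in the cow table and at chromosome 4, 94117707 to 94128846, in the pig table. Its cow values were 294.7 RPM in the oocyte, 248 RPM at 2-4 cells, 135 RPM at 8-16 cells, 41.8 RPM in the morula and 17.2 RPM in the blastocyst. In pig, RIT1 ran the other way, with 0 RPM in the oocyte, 1.21 RPM at 2-4 cells, 3.79 RPM at 8-16 cells, 29.3 RPM in the morula and 79.4 RPM in the blastocyst. Its oocyte percentiles were 97.0 and 15.5, a difference of 81.5 points (95% counting interval 59.0 to 81.7). DBR1, the enzyme that opens intron lariats, had 224.5 RPM in the cow oocyte and 0 RPM in the pig oocyte (80.3 points), and reached 31.9 RPM in the pig 8-16 cell embryo.

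PPARGC1A, a coactivator that drives mitochondrial biogenesis, had 134 RPM in the cow oocyte and 162 RPM in the cow 2-4 cell embryo. In pig it had 0 RPM in the oocyte and at most 8.46 RPM at any stage, and the oocytes lay 76.7 points apart. RBM46, an RNA-binding protein of germ cells, stood at 126 RPM in the cow oocyte and at 0 RPM in the pig oocyte (76.1 points). MYCL, a member of the MYC family, stood at 83.0 and 0 RPM (72.4 points). SOSTDC1, a secreted antagonist of BMP and WNT signals, stood at 112 and 0 RPM, and TECTB, a protein with a zona pellucida domain known from the inner ear, at 113 and 0 RPM. Both were 75.2 points apart. PTGS2, which makes prostaglandin precursors and is also a cumulus marker, had 91.3 RPM in the cow oocyte and 0 RPM in the pig oocyte (73.2 points), but 902 RPM in the cow blastocyst and 1809 RPM in the pig blastocyst.

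To compare sizes as well as ranks, both libraries were forced onto one shared distribution (quantile normalization) and differences of log2(RPM + 1) were taken on that scale. By this measure 3 further cow-higher symbols stood out. MICAL2, an enzyme that oxidizes actin, had 960 RPM in the cow oocyte and 6.51 RPM in the pig oocyte, with percentiles of 99.6 and 57.1 and a normalized log2 difference of 7.22. It stayed between 2.66 and 8.85 RPM in all 5 pig libraries, while the cow libraries held 1012 RPM at 2-4 cells and 24.9 RPM in the blastocyst. HMGN4, a nucleosome-binding protein, had 199 RPM in cow and 0.296 RPM, 1 read, in pig. TMPO, which ties chromatin to the nuclear lamina, had 377 RPM in cow and 1.78 RPM in pig, and over the 5 stages the cow values spanned 47.4 to 377 RPM and the pig values 1.78 to 13.3 RPM.

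In the other direction, the 8 symbols furthest above cow in the pig oocyte were TNN, TRPC4, ITGA2B, SERTAD2, KCNH7, AASS, PHF19 and OTX1, all with 0 reads in the cow oocyte. TNN encodes tenascin-N, a glycoprotein of the extracellular matrix. It lay at chromosome 16, 57788141 to 57847856, in cow and at chromosome 9, 117174743 to 117244391, in pig. The pig oocyte held 1421 RPM of TNN, followed by 625 RPM at 2-4 cells, 752 RPM at 8-16 cells, 34.6 RPM in the morula and 0 RPM in the blastocyst. The cow libraries held 0 RPM in the oocyte and at most 2.95 RPM, at 8-16 cells. The difference of -86.4 points (interval -86.4 to -66.2) was the furthest from 0 among the symbols picked.

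TRPC4, a cation channel, had 271 RPM in the pig oocyte and 0 RPM in the cow oocyte (-82.5 points). KCNH7, a potassium channel, had 184 and 0 RPM (-80.3 points), and ITGA2B, an integrin best known from platelets, had 197 and 0 RPM (-80.7 points). AASS, which begins lysine breakdown, had 131 RPM in the pig oocyte and 0 RPM in the cow oocyte (-77.5 points), and 43.7 RPM in the cow blastocyst. PHF19, a partner of the Polycomb complex, had 115 and 0 RPM (-76.1 points). For SERTAD2 (188 and 0 RPM) and OTX1 (108 and 0 RPM), the pig and cow spans differed by 131 and 137 times, and for ITGA2B by 7.74 times.

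HPGDS, which makes prostaglandin D2, had 1307 RPM in the pig oocyte and 1 read in the cow oocyte, a difference of -70.9 points and of -10.04 on the normalized log2 scale. Pig HPGDS stood at 136 RPM at 2-4 cells. RORB, a nuclear receptor, had 366 RPM in the pig oocyte, 671 RPM at 8-16 cells and 0.536 RPM in the pig blastocyst, against 0.406 RPM in the cow oocyte. PAX6, a homeobox regulator of eye and brain development, had 525 RPM in the pig oocyte and 1.22 RPM in the cow oocyte, a difference of -58.2 points. The PAX6 spans were nearly equal, at chromosome 15, 63356631 to 63384294, in cow and chromosome 2, 28973472 to 29001265, in pig. MFSD4A had 439 RPM in pig and 0.811 RPM in cow (-61.0 points).

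**Figure D2:**
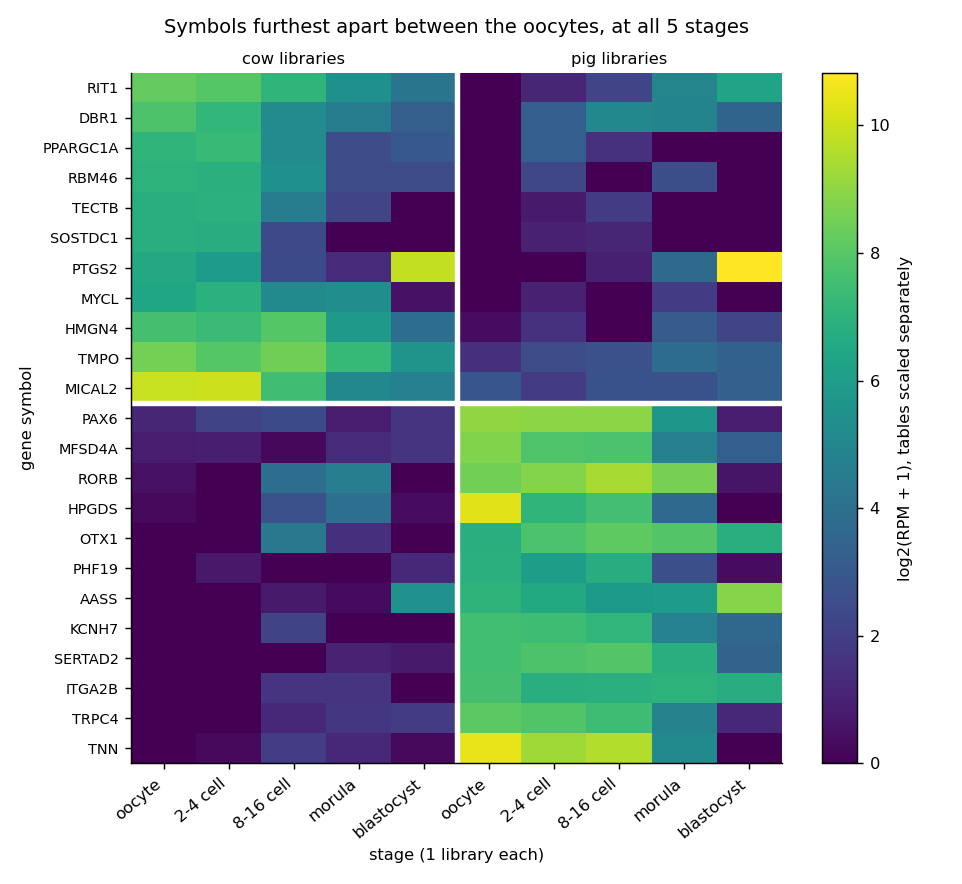
RPM of the symbols furthest apart between the oocytes, in the 5 cow libraries (left columns) and the 5 pig libraries (right columns), with cow-higher symbols in the upper block and pig-higher symbols in the lower one. The pig oocyte column is at or near 0 through the upper block and the cow oocyte column through the lower, as for RIT1 (294.7 and 0 RPM) and TNN (0 and 1421 RPM).

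Presence in one oocyte only was also counted directly. Of 4890 symbols with at least 10 RPM in the cow oocyte, 209 (4.27%) had 0 reads in the pig oocyte. Of these 209, 175 had reads in another pig library and 65 reached 10 RPM there, while 34 had none in any pig library. Of 5110 symbols with at least 10 RPM in the pig oocyte, 179 (3.5%) had 0 reads in the cow oocyte. Of these 179, 144 had reads in another cow library and 33 reached 10 RPM there, while 35 had none. Rows of the last kind included ARPP19 among the cow symbols and TFPI2 among the pig symbols.

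The lists of genes by role follow, and each count is to be read beside the 13.9% of compared symbols that ranked higher in cow and the 14.5% that ranked higher in pig. No list was tested. List members named beyond the extremes and the most abundant were chosen after their values were seen. Of the members ranked apart that are named, TRPM7, MBD4, TDG, HIST3H2A, SCD5, PFKP, PFKM, GAPDH, GPX3, RPL17, COX7B, COX6A1, MRPS6, MRPL13, PSMB4 and GATA2 overlapped another row in the pig table, and MOV10L1 in the cow table. Spans differed by more than 2 times for OTX2, MFGE8, CD9, BOLL, TDG, PFKM, TXN, H2AFZ, RPL17, RPL19, RPL36, UQCRFS1, NDUFA4, COX6A1, PSMB4 and GATA2, and for the members whose ratio is given. Ranked among all rows of each table, ZFP36L1 (19.03 points), MBD4 (21.97 points), TRPM7 (-20.6 points) and H2AFZ (-18.97 points) were no longer 25 points apart. Ranked among symbols with at least 1 RPM in one oocyte, FST (-18.6 points) and PLIN5 (-13.9 points) were not either.

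The marker lists of other cell types were counted in the same way. Of 11 cumulus and granulosa symbols compared, 2 ranked higher in cow (PTGS2 and NR5A2) and 1 in pig (FST, at 1.78 RPM against 0 reads in all 5 cow libraries). Of 7 blood, stroma and endothelium symbols, 2 ranked higher in cow and 3 in pig. Of 8 trophectoderm and inner cell mass symbols, 3 ranked higher in cow and 2 in pig.

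Zona pellucida proteins build the coat that sperm bind. All 3 paired members, ZP2, ZP3 and ZP4, were compared and none was ranked apart. Their lowest percentile was 90.6, for ZP3 in pig, and at the top ranks are tightly packed. On the normalized log2 scale ZP2 differed by 2.17, ZP3 by 0.39 and ZP4 by 0.60. ZP3 had 147 RPM in the cow oocyte and 127 RPM in the pig oocyte, and ZP4 had 270 and 201 RPM. The ZP3 values parted in the next stage, at 87.2 RPM in the cow 2-4 cell embryo and 3.62 RPM in the pig 2-4 cell embryo. Of the oocyte growth factors, 5 were compared and none was ranked apart. BMP6 stood at 14.0 and 13.9 RPM, and the receptor KIT at 243 RPM in cow and 45.3 RPM in pig (16.9 points). On the normalized log2 scale KIT differed by 2.66, while GDF9 (-1.37) and BMP15 (-0.52) went the other way.

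The subcortical maternal complex is a protein assembly under the egg membrane that cleavage depends on, and several NLRP genes belong to or resemble its members. Only 4 of the 13 listed symbols were paired, and none was ranked apart. NLRP9 had 505 RPM in cow and 739 RPM in pig, NLRP8 had 106 and 58.0 RPM, PADI6 had 32.0 and 60.4 RPM, and OOEP had 6.29 and 16.6 RPM. Several members carried a symbol in one table only, so no comparison was made for them. In the cow table these were NLRP14 at 702 RPM, NLRP5 at 65.9 RPM and KHDC3L at 7.30 RPM. In the pig table they were NLRP13 at 309 RPM, TLE6 at 0.888 RPM and ZBED3 at 0 reads.

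Of 8 oocyte transcription factors compared, 2 ranked higher in cow and 1 in pig. FIGLA, which switches on zona genes, had 38.3 RPM in the cow oocyte and 4 reads (1.18 RPM) in the pig oocyte. The difference was 38.6 points (28.4 to 46.4). OTX2, at 1.83 and 0 RPM, had no read in any pig library. TAF7L, a subunit of the basal transcription machinery, had 0 RPM in cow and 6.51 RPM in pig (-43.7 points). LHX8 (164 and 192 RPM) and NOBOX (15.8 and 21.3 RPM), both needed for early follicles, lay within 2 points.

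**Figure D3:**
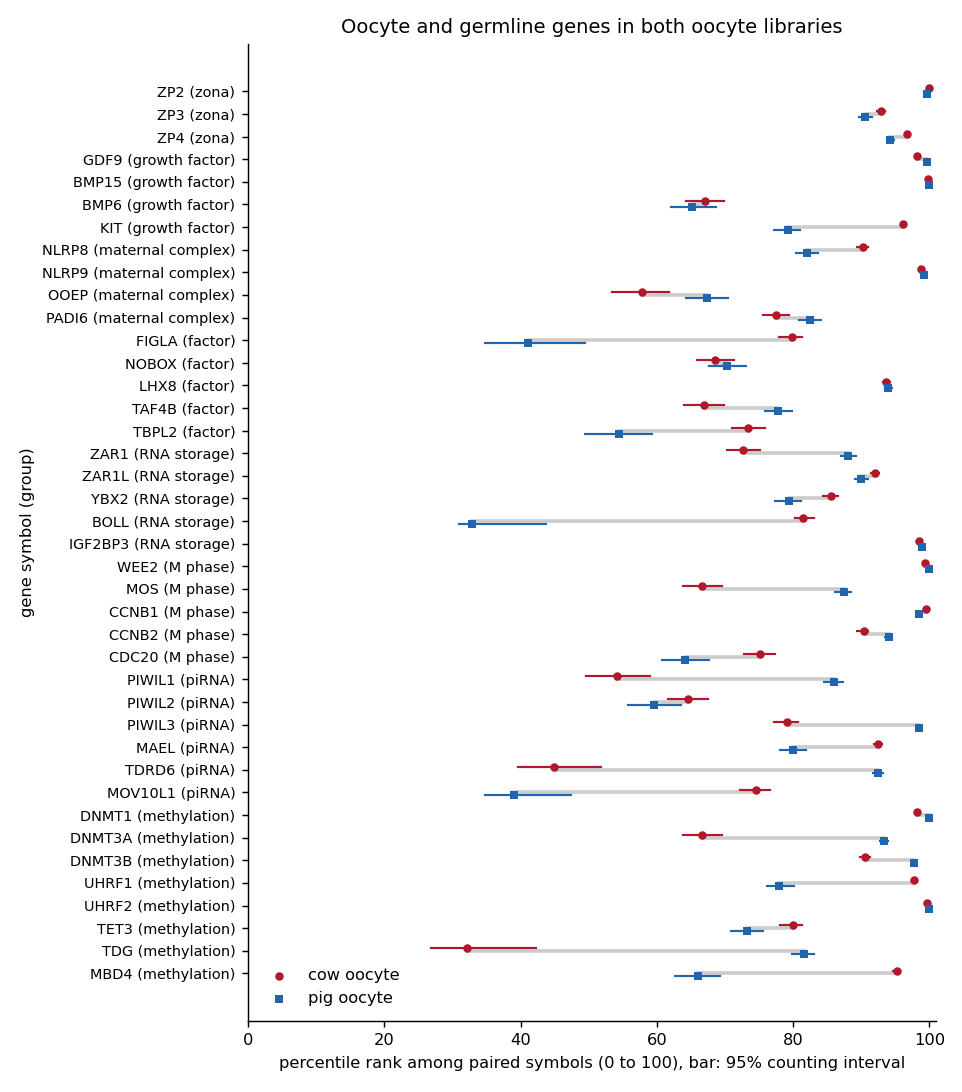
Percentile rank among paired symbols (x axis, 0 to 100) of oocyte genes in the cow and pig oocyte libraries, with 95% counting intervals as bars and gene symbols with their list on the y axis. Markers of both species nearly coincide for zona genes and BMP15, while FIGLA lies at percentile 79.8 in cow and 41.1 in pig.

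Proteins of the egg surface and of egg activation gave 11 compared symbols, of which 3 ranked higher in cow and 1 in pig. MFGE8, a secreted sperm- and cell-binding protein, had 10.1 RPM in the cow oocyte and 0 RPM in the pig oocyte (47.7 points). CD9, a tetraspanin needed for fusion with sperm, had 4.26 and 0 RPM (37.7 points), with 112 RPM by the pig morula. TPST2, a protein sulfotransferase, had 12.98 and 0.592 RPM (29.8 points). TRPM7, a calcium and magnesium channel of eggs, had 10.1 RPM in cow and 140 RPM in pig (-28.4 points). The calcium release channel ITPR1 had 162 and 90.3 RPM and was not ranked apart.

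Kinases and cyclins drive the meiotic divisions. Of 22 compared symbols in that list, 1 ranked higher in cow and none in pig, and the median was 1.47 points. WEE2 lay 17 places from the top in pig and 91 places from the top in cow. CCNB1, the cyclin of the M-phase kinase, had 879 RPM in cow and 513 RPM in pig, MASTL had 624 and 382 RPM, and PLK1 had 163 and 158 RPM. MOS, which drives the MAP kinase arm of meiotic arrest, had 13.6 RPM in cow and 92.1 RPM in pig (-20.7 points). The exception was ARPP19, the substrate through which MASTL blocks a phosphatase, at 150 RPM in cow and 0 RPM in pig. The pig ARPP19 row had 0 reads in all 5 libraries and a span that differed from the cow span by 45.6 times.

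Signals through cAMP hold the oocyte at prophase. Of 13 compared symbols in that list, 2 ranked higher in cow and none in pig. The gap junction protein GJA1 had 51.9 RPM in the cow oocyte and 0 RPM in the pig oocyte (67.6 points, 43.8 to 68.8), and had at most 5.36 RPM in any pig library. Of the receptors that keep cAMP high, GPR12 had 19.5 and 1.78 RPM (26.7 points), while GPR3 had 25.8 and 61.6 RPM (-7.95 points). The phosphodiesterase PDE3A stood at 56.6 and 62.2 RPM.

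Among proteins that store maternal messages, 11 symbols were compared and 1 ranked higher in cow. BOLL, an RNA-binding protein of the DAZ family, had 45.4 RPM in the cow oocyte and 1 read in the pig oocyte (48.6 points). ZAR1, needed for the first cleavage, had 22.1 RPM in cow and 99.5 RPM in pig (-15.4 points), and its relative ZAR1L had 133 and 120 RPM. IGF2BP3, which stabilizes bound messages, had 446 and 600 RPM. The symbols CPEB1 (pig, 137 RPM) and DAZL (cow, 137 RPM) each occurred in 1 table only.

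Enzymes and adapters that shorten and decay poly(A) tails gave 22 compared symbols, with 1 ranked higher in each species. BTG4, the adapter that brings the deadenylase to maternal messages, had 1723 RPM in cow and 1674 RPM in pig, at places 11 and 24 from the top. CNOT1, the scaffold of that deadenylase, had 598 and 363 RPM. The AU-element binding proteins differed: ZFP36L1 had 386 RPM in cow and 25.8 RPM in pig (25.5 points), and ZFP36L2 had 0.203 and 15.7 RPM (-37.9 points), with spans that differed by 3.04 times.

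The DNA methylation list included the most abundant row of the pig library. DNMT1, the maintenance methyltransferase, had 34449 RPM in the pig oocyte, or 3.44% of all reads, and 400.0 RPM in the cow oocyte. Its ranks were 1 in pig and 249 in cow, which is only -1.87 points but -4.95 on the normalized log2 scale. UHRF2, related to the targeting partner of DNMT1, had 6436 RPM in pig and 1016 RPM in cow. UHRF1, the targeting partner itself, had 41.4 RPM in pig and 356 RPM in cow (19.8 points). The high pig DNMT1 values went on at 2-4 cells with 11849 RPM and stood at 30.0 RPM in the blastocyst, while cow DNMT1 was between 22.2 and 557 RPM throughout.

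Of 19 compared symbols in the methylation list, 1 ranked higher in cow and 2 in pig. The thymine glycosylase MBD4 had 202 RPM in cow and 14.8 RPM in pig (29.2 points). The related glycosylase TDG had 2 reads (0.406 RPM) in cow and 55.1 RPM in pig (-49.5 points). The de novo methyltransferase DNMT3A had 13.6 RPM in cow and 175 RPM in pig (-26.6 points, -30.1 to -23.1), with spans that differed by 3.65 times. DNMT3B had 110 and 412 RPM (-7.26 points), and the dioxygenase TET3 had 38.7 and 27.5 RPM. DPPA3, which protects maternal methylation, occurred by symbol in the cow table only, at 2769 RPM.

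Imprinted genes carry methylation set in the germ line. Of 40 listed symbols 24 were paired and 14 compared, with 1 higher in cow and 4 in pig and a median of -7.30 points. TFPI2, a protease inhibitor, had 72.2 RPM in the pig oocyte and 0 reads in all 5 cow libraries. PEG10, a gene of retroviral origin, had 14.0 RPM in cow and 253 RPM in pig (-28.6 points), with 333 RPM in the pig 2-4 cell and 259 RPM in the pig 8-16 cell embryo. GRB10, an adapter of growth factor receptors, had 4.67 and 0 RPM (38.7 points). DIRAS3 (0 and 2.37 RPM) and DCN (0 and 1.48 RPM) made up the rest of the pig-higher symbols. MEST had 45.03 RPM in cow and 200.4 RPM in pig and was not ranked apart.

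The piRNA pathway uses PIWI proteins and small RNAs to silence transposons in germ cells. Of 17 compared symbols, 1 ranked higher in cow and 3 in pig. TDRD6, a scaffold of germ granules, had 2.03 RPM in the cow oocyte and 156 RPM in the pig oocyte (-47.5 points, -53.5 to -40.0). PIWIL1 had 4.67 and 80.8 RPM (-31.8 points). MYBL1, the transcription factor of piRNA precursors in the testis, had 15.4 and 222 RPM (-26.7 points). PIWIL3, the oocyte PIWI protein of many mammals, had 36.3 and 520 RPM (-19.3 points), and its pig span overlapped another row. MOV10L1, the helicase that starts piRNA processing, was the cow-higher member, at 25.4 and 0.888 RPM. TDRD5 had nearly equal values, at 176 and 156 RPM.

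Among linker and variant histones, 10 symbols were compared, with 2 higher in cow and 1 in pig. H1F0, the linker histone of differentiated cells, had 25.6 RPM in cow and 0 RPM in pig (59.2 points), with spans that differed by 3.77 times. HIST3H2A had 4.46 and 0 RPM and no read in any pig library. H2AFZ, a histone variant at promoters, had 1.83 and 20.7 RPM (-26.0 points). The histone chaperone NASP had 1348 and 847 RPM.

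Pig oocytes are known for large stores of lipid. In the list of lipid droplet and fatty acid genes 36 symbols were compared, 6 ranked higher in cow and 1 in pig, and the median was 0.034 points. PPARGC1A led the cow-higher members. FABP5, a fatty acid carrier, had 70.8 RPM in cow and 2.66 RPM in pig (38.2 points). FASN, which makes palmitate, had 9.94 RPM in cow and 1 read in pig (30.1 points), and SCD5, a desaturase, had 8.72 RPM and 1 read (28.5 points). DGAT2, which completes triglycerides, had 6.29 and 0 RPM, with no read in any pig library. The droplet coat protein PLIN5 was the pig-higher member, at 1.18 RPM against 0 reads in all 5 cow libraries. PLIN2, the main coat protein, had 57.0 RPM in cow and 133 RPM in pig (-7.00 points). ACSL3, which activates fatty acids at forming droplets, had 192 and 1849 RPM, places 703 and 20 from the top.

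Glucose uptake and glycolysis gave 15 compared symbols, with 3 higher in cow and 4 in pig. The isoforms of hexokinase went opposite ways: HK1 had 25.4 RPM in cow and 0.888 RPM in pig (35.5 points), and HK2 had 3.65 and 48.9 RPM (-28.7 points). Of the phosphofructokinase isoforms, PFKP had 0.609 and 42.0 RPM (-43.4 points) and PFKM had 0.406 and 7.99 RPM (-27.0 points), while PFKL had 1 read in cow and 0 in pig and was not compared. PGAM1 had 14.4 and 0 RPM (51.8 points). GAPDH, a common reference gene, had 78.9 RPM in cow and 4.74 RPM in pig (33.5 points). The lactate dehydrogenase subunits also leaned apart without passing 25 points, LDHA at 617 and 67.5 RPM and LDHB at 25.8 and 95.6 RPM.

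In antioxidant defence, 20 symbols were compared with 1 higher in each species. Thioredoxin, TXN, had 5.48 RPM in the cow oocyte and 0 reads in all 5 pig libraries. The secreted peroxidase GPX3 had 0 RPM in cow and 12.7 RPM in pig (-50.8 points). SOD1 had 68.0 and 95.9 RPM. None of 21 chaperones was ranked apart, and HSPA8 stood at 555 and 390 RPM. On the normalized log2 scale HSPA4 (2.28), CCT7 (2.02) and HSPE1 (-2.06) differed by more than 2.

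**Figure D4:**
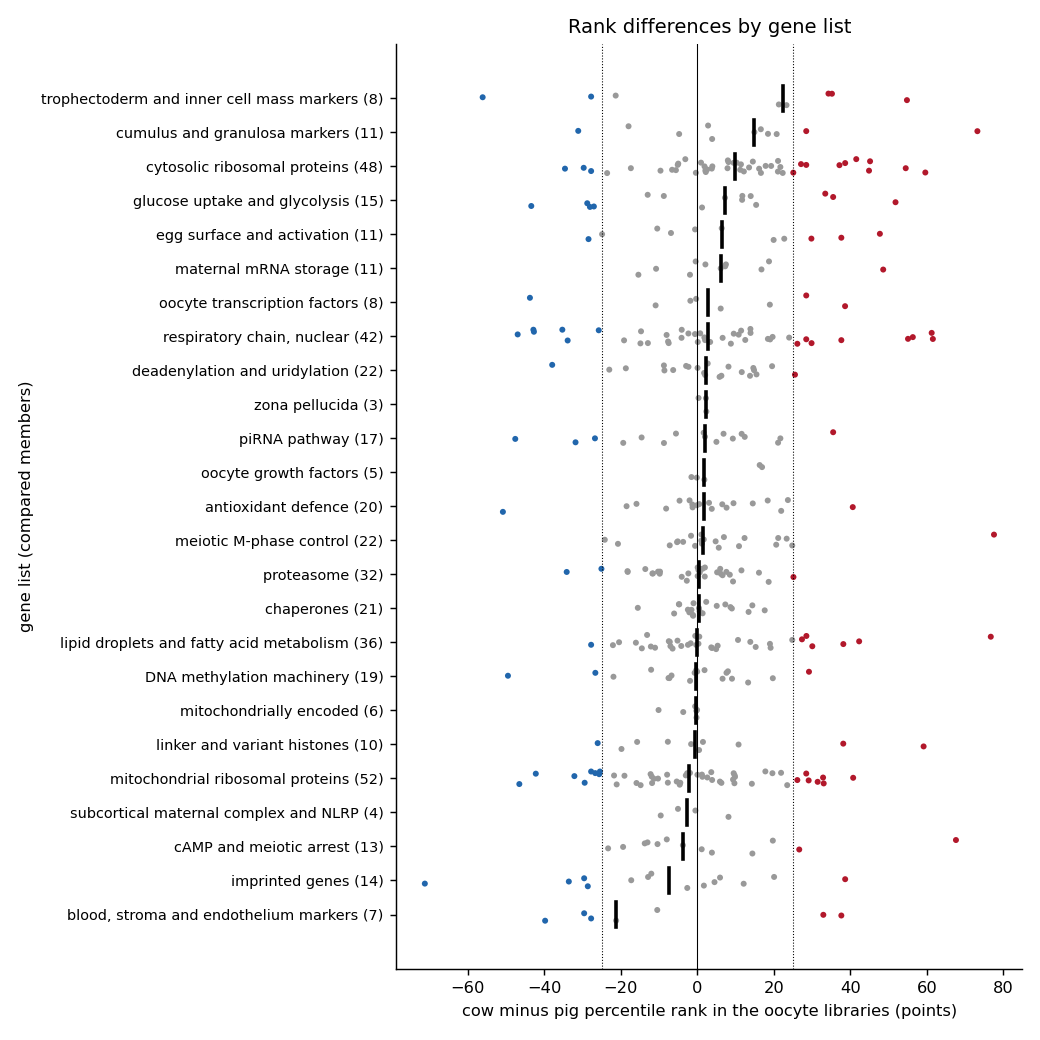
Cow minus pig percentile rank in the oocyte (x axis, points) of every compared member of each gene list (y axis, number compared in brackets), with dotted lines at -25 and 25 points. Meiotic M-phase and chaperone members gather near 0, and ribosomal and respiratory chain members spread to both sides.

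Large housekeeping complexes follow. Of 48 cytosolic ribosomal protein symbols compared, 10 ranked higher in cow and 3 in pig, 36 had a difference above 0, and the median was 9.91 points. RPL17 (26.6 and 0 RPM) and RPL36 had no read in any pig library, whereas RPL28 (17.9 and 0 RPM, 54.5 points) had up to 3.49 RPM, in the pig blastocyst. RPL19 had 86.2 RPM in cow and 11.5 RPM in pig (25.1 points), and RPL37 went the other way at 1.83 and 28.4 RPM (-29.7 points). Ribosomal proteins have many near-identical pseudogene copies, and how the counting divided such reads is not given in the sources used here, so these values are uncertain.

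Of 52 mitochondrial ribosomal protein symbols, 7 ranked higher in cow and 8 in pig. MRPS6 had 226 RPM in the cow oocyte and 5.33 RPM in the pig oocyte (40.7 points), and 262 RPM in the pig blastocyst. MRPS26 had 0.406 and 43.5 RPM (-46.5 points), and MRPL13 had 7.10 and 135 RPM (-32.1 points). Of 42 nuclear-encoded respiratory chain symbols, 8 ranked higher in cow and 6 in pig. UQCRFS1 (31.0 and 0 RPM), NDUFA4 (20.5 and 0 RPM) and COX7B (18.7 and 0 RPM) had no read in any pig library, and COX6A1 had 2.23 RPM in cow and 105 RPM in pig (-42.8 points). Of 32 proteasome symbols, 1 ranked higher in cow and 2 in pig, and PSMB4 had 3.45 and 73.7 RPM (-34.1 points).

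Mitochondrially encoded genes took 4.40% of the cow oocyte reads and 6.06% of the pig oocyte reads over all rows on the mitochondrion. The 6 of them that carried a shared symbol held 6248 RPM in the cow oocyte and 45047 RPM in the pig oocyte. The cow reads lay mostly in 2 mitochondrial rows without a symbol, at 26134 RPM (positions 1453 to 3023) and 9898 RPM (positions 431 to 1385). These 2 rows overlapped no other row, so they are other genes than the 6. COX1 had 2966 RPM in cow and 15454 RPM in pig, places 7 and 2 from the top, and none of the 6 was ranked apart. On the normalized log2 scale the 6 differed by between -3.90 (ND2) and -1.11 (COX1).

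The 10 rows with the most reads in each library were listed. Beside mitochondrial rows and 1 row without a symbol, the cow oocyte list held CENPF, a kinetochore protein, at 5032 RPM (164 RPM in pig). It also held LEO1, a subunit of the elongation complex PAF1, at 4933 RPM (292 RPM in pig), and ANKRD17 at 4290 RPM (240 RPM in pig). KIF20B, a kinesin of cell division, had 3516 RPM (670 RPM in pig), WAC had 3372 RPM (822 RPM in pig), and ZP2 had 3261 RPM (1128 RPM in pig). The pig list held, beside DNMT1, UHRF2 and mitochondrial rows, EIF5B, a translation initiation factor, at 5397 RPM (1506 RPM in cow). It also held SIN3A, a corepressor scaffold, at 4405 RPM (580 RPM in cow), and TP53RK at 6621 RPM (0.609 RPM in cow). The pig spans of SIN3A and TP53RK overlapped other rows, and that of TP53RK ran over chromosome 17, 48113744 to 48850961.

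Libraries of later stages were compared in the same way. They are other libraries, and not replicates of the oocyte. The shares given next include the 253 cow-higher and 360 pig-higher symbols under 1 RPM in all 5 libraries of the lower species. For these symbols the lower species stayed near the floor at every stage, and their part in the shares was not tested. Of the 1316 cow-higher symbols, 818 (62.2%) also ranked at least 25 points higher in cow at 2-4 cells, where 14.8% of all compared symbols did. The share was 42.1% at 8-16 cells (11.6% of all), 24.9% in the morula (9.3% of all) and 23.9% in the blastocyst (11.2% of all). Of the 1364 pig-higher symbols, 1000 (73.3%) were also pig-higher at 2-4 cells (13.6% of all). Their share was 51.5% at 8-16 cells (13.5% of all), 34.2% in the morula (11.3% of all) and 29.0% in the blastocyst (11% of all). Few turned around: 5 cow-higher and 2 pig-higher symbols were ranked apart in the opposite direction at 2-4 cells, and 75 and 94 in the blastocyst.

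**Figure D5:**
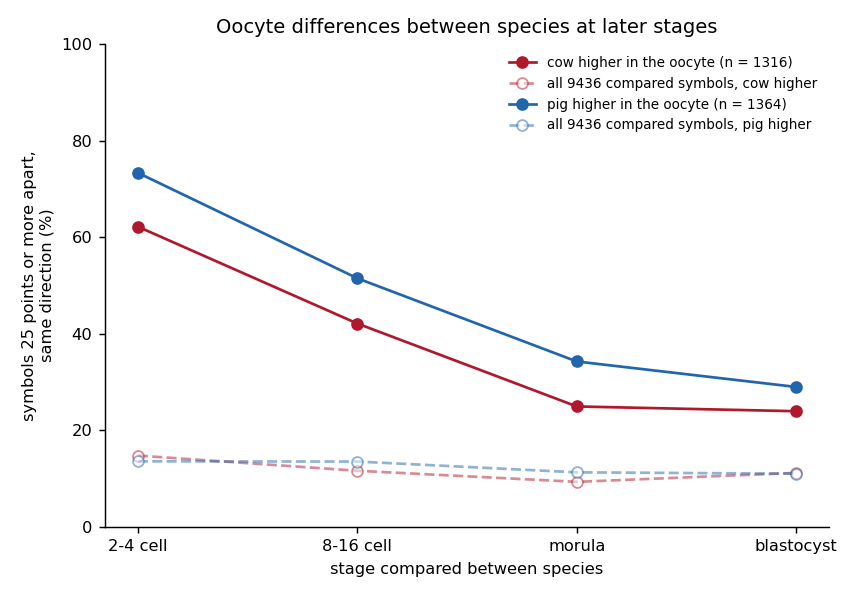
Share of oocyte-different symbols (y axis, percent) ranked at least 25 points apart in the same direction at each later stage (x axis). The sets are the 1316 cow-higher and the 1364 pig-higher symbols. Those under 1 RPM in every library of the lower species are included. Dashed lines give the share of all 9436 compared symbols called that way at that stage; the solid lines start at 62.2% and 73.3% and end at 23.9% and 29.0%, above the dashed lines throughout.

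Later libraries of the lower species were set against the oocyte of the higher one. For 961 (73.0%) of the cow-higher symbols, some later pig library came within 25 points below the cow oocyte percentile or above it. This was first so at 2-4 cells for 438 (33.3% of the set) and at 8-16 cells for 189. The same held for 95.4% of all compared symbols over the later pig stages, and for 84.7% at 2-4 cells. For 841 (61.7%) of the pig-higher symbols, some later cow library did so, for 204 of them at 2-4 cells and for 391 from 8-16 cells, against 94.0% of all compared symbols over the later cow stages. TFAP2C, a transcription factor of the trophectoderm, was such a symbol. It had 19.8 RPM in the pig oocyte and 0 RPM in the cow oocyte, but 232 RPM in the cow and 183 RPM in the pig 8-16 cell embryo. GATA2, another trophectoderm factor, had 18.3 RPM in the cow oocyte and 0 RPM in the pig oocyte, and 76.9 and 134 RPM in the blastocysts. For 355 cow-higher and 523 pig-higher symbols no later library of the other species came that close.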

How the data were processed

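RNA-seq of 1 cow and 1 pig oocyte library was analysed, with the 4 later stages of each species as context. Per the submitters' processing notes, reads were handled with Trim Galore 0.6.4 and HISAT2 2.1.0, and the builds named are UMD3.1 and Sscrofa11.1, taken here as those of cow and pig. Counting, annotation, strand and duplicate handling are not given in the sources used here. The deposited log2 values were turned back into RPM. In both oocyte columns at least 99.9% of the values were whole multiples of 1 read (within 0.02 of a read), and 0 reads was written as 0.9 of a read, so read counts and library totals could be recovered.

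Symbols were paired, ranked (ties averaged) and compared as described above, with Python 3.11.15, pandas 2.3.3, numpy 2.4.6 and scipy 1.17.1. Intervals are 95% Wilson intervals, with 3 reads as the upper limit for 0 reads; an interval of a rank difference sets the bounds of both species against each other. With 1 library per group no test was possible. Named genes were the 8 per direction with the largest rank difference, the 6 per direction with the largest quantile-normalised difference of log2(RPM + 1), all zona and subcortical complex members, the extremes and the 2 most abundant members of every other list, and the 10 rows with the most reads per library. The rule, the members and the lists were chosen with earlier results of these data known. The scripts were tested on simulated data. Alternatives covered the ranking, the minimum RPM, the threshold, quantile-normalised differences, equal depth and the gene models.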

Additional observations from a re-analysis of the deposited data

How the results depend on the processing

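No paired analysis was possible because each group had 1 library, and for the same reason no replicate could be left out. Over 70 recomputed counts, 51 stayed within 1.5 times of the reported count and 19 did not. The counts ranked higher in cow and in pig were 2294 and 2115 at a threshold of 15 points (1711 and 1674 of them also at 2-4 cells), and 629 and 690 at 35 points (336 and 477 also at 2-4 cells). With a difference of 2 in quantile-normalised log2(RPM + 0.1), they were 2377 and 2209 (1734 and 1721 also at 2-4 cells). A minimum of 5 RPM left 871 cow-higher symbols. Leaving out overlapping spans gave 831 pig-higher symbols, 614 of them also at 2-4 cells, and 104 symbols present in pig alone. Leaving out spans that differed by more than 2 times, an alternative chosen after seeing the data, gave 892, 644 and 107. These last counts rest on fewer symbols by construction. The share of calls that were higher in cow was 49.1%, and ranged from 46.4% to 54.8%, the highest with ranks among all rows of each table (1186 cow-higher and 979 pig-higher symbols). With the cow library thinned to the 3377626 reads of the pig library, 1299 symbols ranked higher in cow and 1383 in pig. Of 117 named genes, 59 were ranked apart, and 51 of these stayed so under all 4 other rankings. FST, H2AFZ, MBD4, PLIN5, PSMC4, RPL39, TRPM7 and ZFP36L1 did not. None of the 59 turned its direction.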
